A study of Mus musculus with 2 samples.

Results

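The genes of major histocompatibility complex (MHC) class II antigen presentation described here are 7 of the 25827 genes counted, found by their symbols in both gene lists. They are the chain genes H2-Aa, H2-Ab1 and H2-Eb1, the invariant chain gene Cd74, the peptide loading genes H2-DMa and H2-DMb1, and the transactivator gene Ciita. Messenger RNA was counted in single cells sorted from whole brains of adult mice, in 1 library labelled IL34LacZ/LacZ and 1 labelled IL34LacZ/+, called the homozygous-labelled and the heterozygous-labelled library below. Per the labels, the sort took border-associated macrophages (BAMs, gated as CD11bhiF4/80+), microglia (CD11b+F4/80hi), endothelial cells (CD31+), mural cells with fibroblasts (CD13+ and/or CD140a+O4-) and astrocytes (ACSA-2+). Interleukin-34 is a ligand of CSF1R, the receptor on which tissue macrophages depend. Both groups carry the LacZ allele of its gene, and no wild-type library was analysed here. The lacZ reporter is not among the counted genes, so the genotypes could not be checked from the counts. The sources used here do not give how many mice each library came from, their sex or their age in weeks, nor in what proportions the sorted cells were mixed.

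MHC class II molecules are pairs of an alpha and a beta chain that show peptides from taken-up protein to CD4+ T cells. The invariant chain, made from Cd74, binds the new pairs and brings them to endosomes, where H2-DM, a pair of H2-DMa and H2-DMb1, helps exchange its remnant for a peptide. Ciita makes the coactivator that these promoters need, and interferon gamma induces it in cells that otherwise lack it. Dendritic cells, B cells and some macrophages carry class II in the resting state. In the brain, it is known in part of the macrophages at the vessels, meninges and choroid plexus, while resting microglia hold little.

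On mouse build GRCm38, 5 of the 7 genes lie within the MHC region of chromosome 17, and all 7 are annotated as protein-coding. H2-DMa lies on the plus strand at chr17:34119541-34139101, H2-DMb1 on the plus strand at chr17:34153072-34160230, and H2-Ab1 on the plus strand at chr17:34257689-34269419. H2-Aa lies on the minus strand at chr17:34282744-34287823 and H2-Eb1 on the plus strand at chr17:34305867-34316674. Outside that region, Ciita lies on the plus strand at chr16:10480059-10528418. Next to H2-DMb1 stands its near-identical copy H2-DMb2, at chr17:34143307-34151555, so the split of reads between these copies is uncertain.

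Class II promoters carry an X box, which the RFX complex binds, and downstream of it a Y box, which NF-Y binds, and Ciita acts through both. RefSeq promoter windows of GRCm38.p6, each 250 bases before to 50 bases after a gene's start, were searched on both strands for GNAAC followed by ATTGG with 25 to 28 bases between them. These letters do not overlap, and the spacing was set after the class II sequences had been seen. Among the 7 genes, 4 had a window and 3 of these held the pair. H2-DMa had a pair of windows, and neither held it. Of 32851 promoter windows, 234 held the pair (0.712%), while 84.8% held GNAAC and 37.4% held ATTGG. The stretches below are shown because they are the letters that members measured in different cells share; capitals mark GNAAC and ATTGG. They are H2-Aa at chr17:34287857-34287914 (minus strand), H2-Eb1 at chr17:34305766-34305822 (plus) and H2-DMb1 at chr17:34153087-34153144 (plus). H2-Oa at chr17:34092293-34092350 (plus) and H2-Ob at chr17:34238808-34238862 (plus), which make the H2-DM inhibitor H2-O, are set beside them, as is H2-Eb2 at chr17:34325533-34325589 (plus), a beta chain gene with 0 UMIs in BAM-like cells. The window of H2-DMb2 did not hold the pair.
H2-Aa: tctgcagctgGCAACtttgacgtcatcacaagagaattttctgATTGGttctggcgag
H2-Eb1: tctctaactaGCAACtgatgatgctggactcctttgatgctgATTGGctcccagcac
H2-DMb1: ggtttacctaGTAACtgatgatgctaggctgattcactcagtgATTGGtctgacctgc
H2-Oa: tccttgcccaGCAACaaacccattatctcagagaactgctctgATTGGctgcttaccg
H2-Ob: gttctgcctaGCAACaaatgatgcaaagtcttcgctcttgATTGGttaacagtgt
H2-Eb2: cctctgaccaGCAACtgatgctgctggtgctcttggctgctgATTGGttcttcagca
The ATTGG began 48, 59 and 61 bases before the start of H2-Aa, H2-Eb1 and H2-DMb1. A match of letters is a description and not a bound site.

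The homozygous-labelled library held 95505407 UMIs (unique molecular identifiers, 1 for each captured transcript molecule) in 18858 barcodes, and the heterozygous-labelled library 87394167 UMIs in 17168 barcodes. After removal of called doublets and of cells under 1000 UMIs, under 500 genes or over 10% mitochondrial UMIs, 9619 and 8208 cells were left, with median depths of 3684 and 3540.5 UMIs. The libraries shared 103 barcodes, 26 of them among the kept cells. Cells were clustered without any class II gene, and a cluster is called after a cell type, as in "BAM-like", only where marker genes that hold no class II gene pointed to it. Clusters named BAM-like, microglia-like, endothelial-like, mural-like and fibroblast-like were found, and no cluster was named astrocyte-like. With 1 library per genotype there are no replicates and no test is possible. Levels are UMIs of a gene scaled to one total for each group of cells (CPM). All intervals are 95% intervals, exact except for differences of shares, and cover counting error only, since neither animals nor libraries are replicated. Those of levels and ratios take each UMI as an independent draw and so also leave out the spread between cells. They are too narrow where few cells hold most of the UMIs.

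Class II transcripts were concentrated in a small part of the macrophage compartment, in both libraries. Summed over the 7 genes, all 2219 macrophage and monocyte cells of the homozygous-labelled library held 10127 CPM, and the 2143 of the heterozygous-labelled library 7133 CPM. Among 15 subsets of these cells, subset 7, led by Cxcl9, Ccl5 and S100a6, was highest with 49337 CPM in 125 homozygous-labelled cells and 41298 CPM in 80 heterozygous-labelled cells. Its markers fitted neither the BAM nor the monocyte list by a clear margin, so it stays unnamed. The dendritic list did not name it either. Its place among the macrophage and monocyte cells is therefore not a cell type, and which type it is was not tested. Subset 5, led by Cd72, Glipr1 and Slamf7 and named BAM-like, followed with 31416 CPM in 222 cells and 32789.8 CPM in 155 cells. These subsets together made up 15.6% and 10.97% of the macrophage and monocyte cells and held 64.1% and 58.9% of their class II UMIs. All other macrophage and monocyte cells together held 4314 CPM in the homozygous-labelled and 3313 CPM in the heterozygous-labelled library.

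The other subsets formed a long slope. The monocyte-like subset 10, led by Plac8, S100a4 and S100a6, held 11792 CPM in 84 homozygous-labelled cells and 13650 CPM in 37 heterozygous-labelled cells. Subset 9, BAM-like and led by Retnla, Vsig4 and Crip1, held 8201 and 9270 CPM. The unnamed subset 3, whose leading genes Sparc, Tmem119 and Cd9 include microglia markers, held 5911 and 3760 CPM. At the low end stood subset 0, led by H4f16, Cd209b and Ccn1, with 1023 and 688 CPM, and subset 8, led by the lectin genes Cd209b, Cd209d and Cd209a, with 572 and 522 CPM.

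Each of the 3 chain genes and Cd74 followed this order at its top. H2-Aa, the alpha chain of I-A, stood at 10090 CPM in subset 7 and 6268 CPM in subset 5 of the homozygous-labelled library, and at 8542 and 6500 CPM in the heterozygous-labelled library. H2-Ab1, its beta chain, stood at 7493 and 4711 CPM in these subsets of the homozygous-labelled library, and at 6337 and 4875 CPM in the heterozygous-labelled library. H2-Eb1, the beta chain of I-E, stood at 7780 and 4983 CPM in the homozygous-labelled library, and at 6191 and 5203 CPM in the heterozygous-labelled library. For each chain the interval of subset 7 lay above that of subset 5, and both lay above the intervals of all other clusters and subsets in both libraries. H2-Ea, which would make the alpha chain of I-E and is annotated as a polymorphic pseudogene, had 0 UMIs in all kept cells, with exact upper limits of 0.0694 and 0.0812 CPM. Cd74, on the plus strand at chr18:60803848-60812652, stood at 22258 CPM in subset 7 and 14554 CPM in subset 5 of the homozygous-labelled library, and at 18487 and 15099 CPM in the heterozygous-labelled library, with B cell-like cells next over both libraries together, at 6248 and 8566 CPM.

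**Figure D1:**
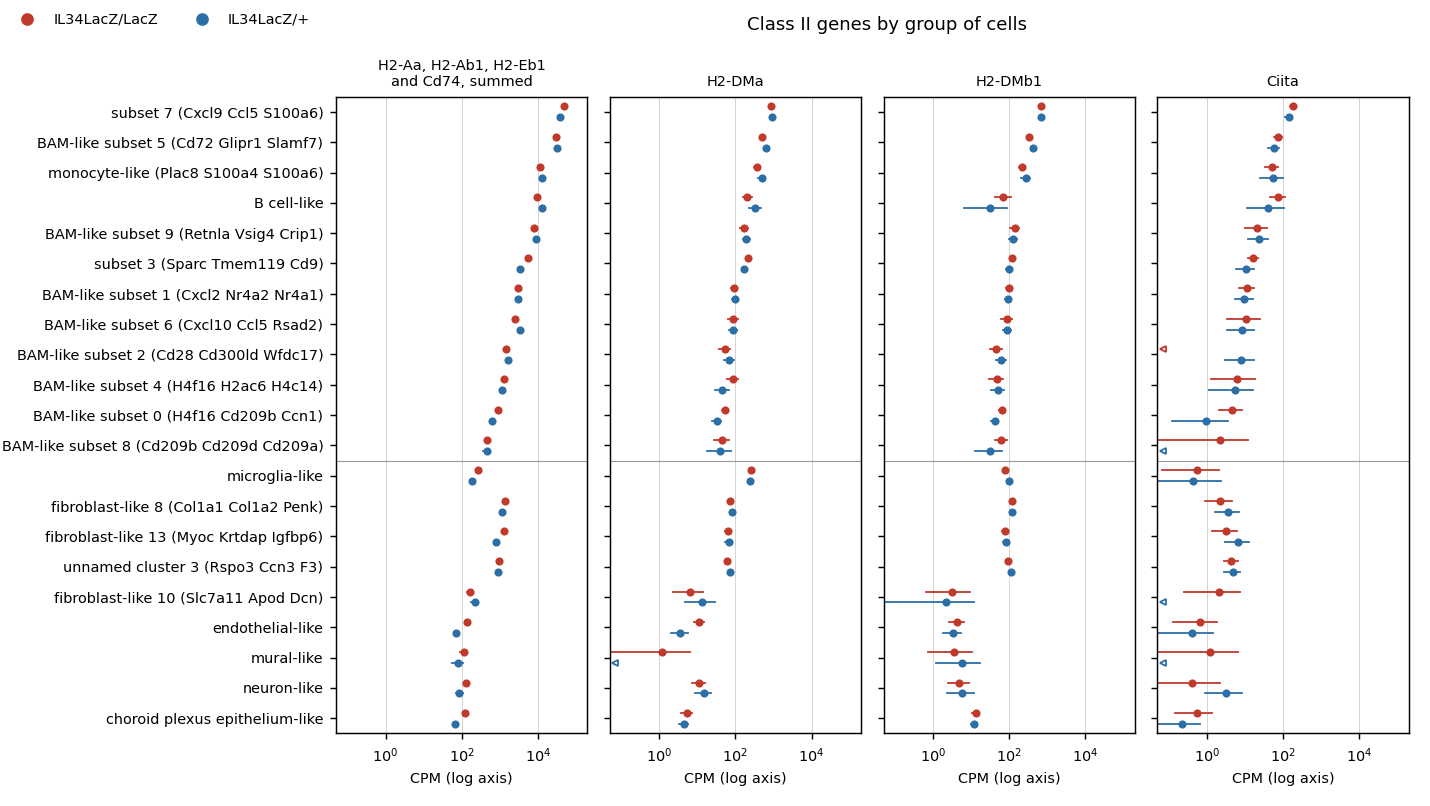
Level of H2-Aa, H2-Ab1, H2-Eb1 and Cd74 summed, and of H2-DMa, H2-DMb1 and Ciita each, in CPM (log axis) in macrophage subsets and other groups of cells. There is 1 point for the homozygous-labelled and 1 for the heterozygous-labelled library, with bars for exact 95% Poisson intervals and open triangles for 0 UMIs. Macrophage subsets 7 and 5 stand at the top for the summed chains and Cd74, while H2-DMa in microglia-like cells, at 252 and 248 CPM, stands above most BAM-like subsets.

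The peptide loading genes had a wider spread over cell types than the chains. H2-DMa was highest in subset 7, at 852 CPM in the homozygous-labelled and 935 CPM in the heterozygous-labelled library, followed by subset 5 at 486 and 631 CPM and the monocyte-like subset 10 at 364 and 500.4 CPM, and the intervals of these last subsets overlapped in the heterozygous-labelled library but not in the homozygous-labelled one. The unnamed subset 11 at 271 and 224 CPM, B cell-like cells at 206 and 328 CPM and microglia-like cells at 252 and 248 CPM came next and did not differ beyond their intervals. H2-DMb1 was highest in subset 7 at 683 and 666 CPM and next in subset 5 at 338 and 425 CPM. Below the monocyte-like cells, at 216 and 272 CPM, its order had neighbours with overlapping intervals, among them fibroblast-like cells at 87.3 and 96.6 CPM and microglia-like cells at 79.9 and 98.4 CPM.

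Ciita, counted at low depth with 518 UMIs in all kept cells of the homozygous-labelled and 256 in those of the heterozygous-labelled library, was highest where the chains were. It stood at 181 CPM in subset 7 of the homozygous-labelled library and 140.1 CPM in that of the heterozygous-labelled one. Subset 5 had 74.3 and 57.4 CPM, B cell-like cells 73.6 and 41.0 CPM and monocyte-like cells 51.5 and 53.2 CPM, which overlap in their intervals. A Ciita UMI was present in 58.4% of the homozygous-labelled cells of subset 7, against 4.34% of BAM-like cells and 0.115% of endothelial-like cells in that library. These cells were not thinned, and their median depths were 6921, 3756.5 and 2101 UMIs, so part of this contrast may be depth.

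Counted per cell, the levels came from a few cells with many class II UMIs and not from a shift of all cells. Each cell was thinned to 1000 UMIs, and a cell with at least 5 of these from H2-Aa, H2-Ab1, H2-Eb1 and Cd74 is called class II-high. This is a range and not a type: 75 homozygous-labelled and 78 heterozygous-labelled BAM-like cells had 3 to 7 such UMIs. Among BAM-like cells, 17.1% were class II-high in the homozygous-labelled library (276 of 1614, interval 15.3% to 19.03%), against 13.6% in the heterozygous-labelled library (237 of 1743, interval 12.02% to 15.3%). These cells held 95.2% and 94.2% of the thinned UMIs of the 4 genes in BAM-like cells, with a median of 25 and 26 per class II-high cell. A further 66.6% and 72.8% of BAM-like cells had none of these UMIs after thinning. All 3 chain genes were found together in 71.7% and 73.8% of the class II-high BAM-like cells after thinning.

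Before thinning, at least 1 UMI of the 7 genes was seen in 66.5% of homozygous-labelled and 53.8% of heterozygous-labelled BAM-like cells, at median depths of 3756.5 and 3411 UMIs. A Cd74 UMI was seen in 45.0% and 35.0% of these cells. In endothelial-like cells, which are known to lack the gene at rest, it was seen in 11.1% and 8.21% at median depths of 2101 and 2100.5 UMIs. Detection of a single UMI thus parts the cells less sharply than the cut at 5, which 0.230% and 0.109% of endothelial-like cells passed.

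**Figure D2:**
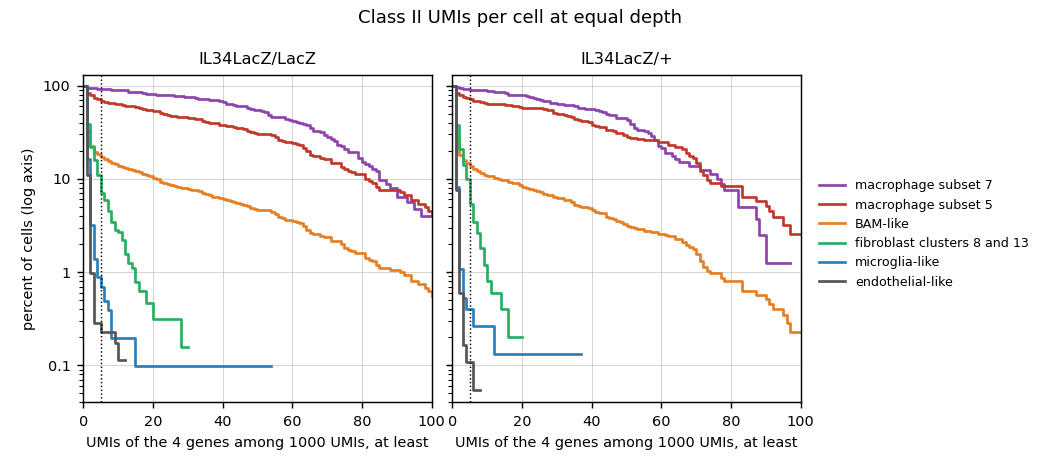
Percent of cells (log axis) with at least a given number of UMIs of H2-Aa, H2-Ab1, H2-Eb1 and Cd74 among 1000 thinned UMIs, for subset 7, subset 5, BAM-like cells, fibroblast clusters 8 and 13, microglia-like and endothelial-like cells, in 1 panel per library; the dotted line marks the cut at 5. Subset 7 stays above 90% at the cut in the homozygous-labelled library (92.8%), while microglia-like and endothelial-like cells fall below 1%.

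The share of class II-high cells was again highest in subsets 7 and 5, while subsets 10 and 9 did not keep the order of their levels in the heterozygous-labelled library. In subset 7 it was 92.8% in the homozygous-labelled library (116 of 125) and 90% in the heterozygous-labelled one (72 of 80), and in subset 5 it was 68.5% (152 of 222) and 72.3% (112 of 155). Monocyte-like cells had 31.0% and 29.7%, subset 9 had 28.3% and 35.1%, and subset 8 had 1.79% and 1.39%. Of all 684 class II-high cells of the homozygous-labelled library, 40.4% were BAM-like and 17.0% were in subset 7, against 48.0% and 14.6% of the 494 in the heterozygous-labelled library. B cell-like cells made up 7.02% and 5.06% of them, fibroblast-like cells 6.73% and 6.07%, and the unnamed cluster 3 made up 5.26% and 8.91%. No mural-like cell passed the cut in either library (0 of 351 and 0 of 188, upper limits 1.05% and 1.94%).

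**Figure D3:**
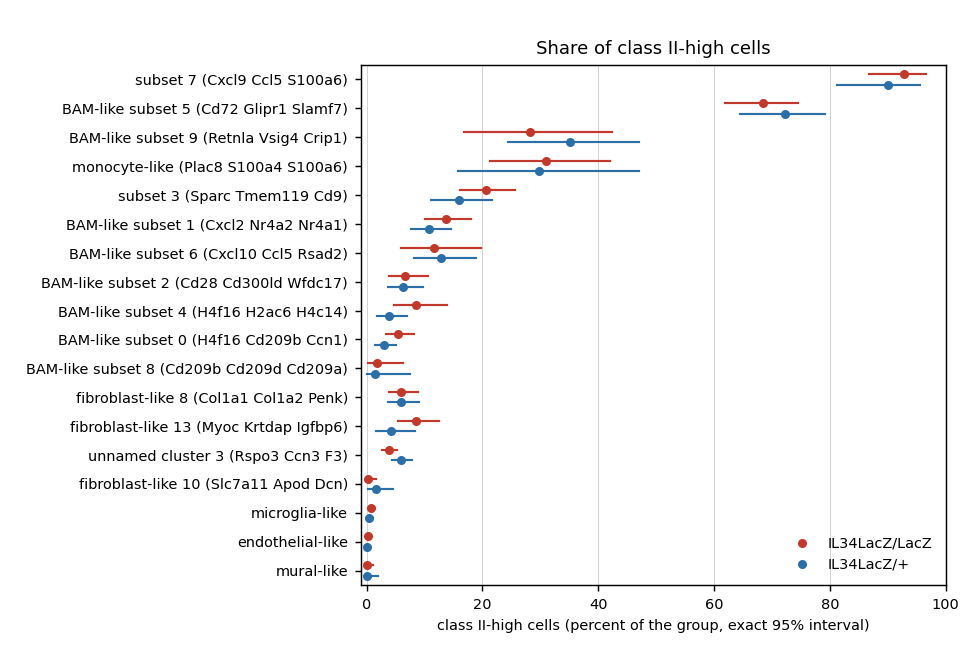
Percent of class II-high cells in macrophage subsets and other groups of cells, with exact 95% Clopper-Pearson intervals, for both libraries. Subset 7 lies at 92.8% and 90%, and microglia-like cells at 0.686% and 0.400%.

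Between the genotypes, BAM-like cells as a whole held slightly more class II RNA in the homozygous-labelled library. The summed level was 5828 CPM (interval 5773 to 5885) in homozygous-labelled and 5174 CPM (5122 to 5228) in heterozygous-labelled BAM-like cells, a ratio of 1.13 (1.11 to 1.14). H2-Aa stood at 1141 and 993 CPM (ratio 1.15, interval 1.11 to 1.19), H2-Ab1 at 829.5 and 731 CPM (1.13, 1.09 to 1.18), and H2-Eb1 at 861 and 755 CPM (1.14, 1.10 to 1.18). Cd74 stood at 2748 and 2461 CPM (1.12, 1.09 to 1.14). The intervals of these 4 genes, which leave out the spread between cells, lie above 1. H2-DMa stood at 125 and 123 CPM (1.02, 0.926 to 1.12) and H2-DMb1 at 108 and 101.4 CPM (1.07, 0.964 to 1.18), so that neither differed beyond counting error. Ciita had 111 and 80 UMIs, or 15.4 and 11.3 CPM (1.36, 1.01 to 1.84).

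None of the 7 genes was 1.5-fold higher in homozygous-labelled BAM-like cells, where 1.18% of the 8914 genes with at least 100 UMIs were, and none was 1.5-fold lower, where 0.796% were. All 7 ratios were above 1, with a median of 1.13, beside a median of 1.02 over all 8914 genes. The ratios of the sum, the chains and Cd74 turned with the treatment of doublets. With the called doublets kept, the summed level was 2354 CPM in homozygous-labelled and 2667 CPM in heterozygous-labelled BAM-like cells, a ratio of 0.883. H2-DMa (0.912) and H2-DMb1 (0.984) were then also below 1, with intervals that include 1, while Ciita stood at 1.09, and no class II-rich subset was then named BAM-like. With subset 7 counted among them, the ratio was 1.47.

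The share of class II-high cells and the level within them were somewhat higher in the homozygous-labelled library, but the share turned round with called doublets kept (a difference of -0.660 percentage points). Cells were then clustered and named anew, and no class II-rich subset was BAM-like, so that this value describes another set of cells. With doublets removed, the share differed by 3.503 percentage points (interval 1.06 to 5.95). It differed by 0.759 points (-1.97 to 3.48) when cells were thinned to 2000 UMIs, with the cut raised in proportion and cells under 2000 UMIs left out. Within class II-high BAM-like cells the summed level was 32653 CPM in the homozygous-labelled and 30231 CPM in the heterozygous-labelled library (ratio 1.08, interval 1.06 to 1.10), and none of the 7 genes was 1.5-fold higher (background 1.69%). Class II-low BAM-like cells held 419.8 and 433 CPM (0.970, 0.918 to 1.03). Of BAM-like cells, subset 5 made up 13.8% in the homozygous-labelled and 8.89% in the heterozygous-labelled library, while subset 6, led by the interferon-induced Cxcl10, Ccl5 and Rsad2, made up 5.89% and 9.81%. Weighting the homozygous-labelled subsets by their heterozygous-labelled shares gave 4935 CPM and a ratio of 0.954. Subset shares rest on 1 sort and 1 loading per genotype, and sort and genotype cannot be told apart.

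Subset by subset the direction was mixed. In subset 7 the summed ratio was 1.19, with none of the 7 genes 1.5-fold apart upward (background 5.09%). In subset 3 it was 1.57, and 4 of 6 measured genes were at least 1.5-fold higher (background 1.26%), H2-Aa standing at 1110 CPM in homozygous-labelled and 702 CPM in heterozygous-labelled cells. In subset 0 it was 1.49, and 4 of 6 measured genes were at least 1.5-fold higher (background 1.54%), H2-Aa standing at 170.2 and 103 CPM. Subset 6 went the other way with 2782 CPM in homozygous-labelled and 3671 CPM in heterozygous-labelled cells. H2-Ab1 was at least 1.5-fold lower there, at 332 and 508 CPM (background 2.33% lower). Over all macrophage and monocyte cells the ratio was 1.42 (1.41 to 1.43), and subset 7 made up 5.63% of these cells in the homozygous-labelled and 3.73% in the heterozygous-labelled library.

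Microglia-like cells held H2-DM and H2-O transcripts with little of the chains. H2-DMa stood at 252 CPM in 1021 homozygous-labelled and 248 CPM in 750 heterozygous-labelled microglia-like cells, which was 113% and 136% of its level in all macrophage and monocyte cells of the same library. An H2-DMa UMI was seen in 50.1% and 46.9% of them, at median depths of 3059 and 2686 UMIs, against 2.65% and 0.930% of endothelial-like cells. H2-DMb1 stood at 47.3% and 73.5% of the macrophage level. The genes of the H2-DM inhibitor were found there too, H2-Oa at 43.1 and 47.1 CPM (326% and 706% of the macrophage level) and H2-Ob at 41.5 and 30.1 CPM (343% and 338%). Subset 7 alone stood higher, with H2-Oa at 67.9 and 57.6 CPM and H2-Ob at 49.5 and 69.1 CPM. Its intervals overlapped those of microglia-like cells for H2-Oa in the heterozygous-labelled and H2-Ob in the homozygous-labelled library. B cell-like cells held H2-Oa at 84.7 and 194.9 CPM. In microglia-like cells the genes that make the chains and Cd74, summed, reached 2.71% of the macrophage level in each library. Beside them, 5 BAM genes that mark macrophage RNA outside macrophages (Pf4, Mrc1, F13a1, Cbr2 and Ms4a7) stood at 1.63% and 1.31%. Ciita had 2 and 1 UMIs in all microglia-like cells.

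Class II-high microglia-like cells were 7 and 3 in number, 0.686% and 0.400%, and held 35.7% and 26.0% of the thinned UMIs of the 4 genes. The remaining microglia-like cells held 171 and 137 CPM of the chains and Cd74 beside 134 and 125 CPM of the 5 BAM genes, with H2-DMa at 252 and 248 CPM. Between the genotypes, H2-DMb1 stood at 79.9 CPM in homozygous-labelled and 98.4 CPM in heterozygous-labelled microglia-like cells (ratio 0.811, interval 0.680 to 0.969), and the H2-DMa ratio was 1.02. Of the 6 genes measured there, 2 (H2-Aa and H2-Eb1) were at least 1.5-fold higher, where 1.73% of all genes were, H2-Aa at 45.7 and 26.7 CPM.

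In vascular cells the chains and Cd74 were scarce, and in endothelial-like cells they moved with BAM and B cell genes. Endothelial-like cells held 151 CPM of the 7 genes in the homozygous-labelled and 79.1 CPM in the heterozygous-labelled library (ratio 1.91, interval 1.68 to 2.16), and all 4 measured genes were at least 1.5-fold higher, where 1.88% of all genes were. Without the 4 and 2 class II-high cells among them the summed ratio was 1.499, and H2-Ab1 (1.31) and Cd74 (1.35) were no longer 1.5-fold apart. When only cells with at least 2000 UMIs were kept, and clustered and named anew, the ratio in the endothelial-like cells so named was 4.52. The 5 BAM genes moved with them, at 144 and 80.5 CPM, a ratio of 1.79, so that there were 0.935 and 0.893 UMIs of the chains and Cd74 for each UMI of the BAM genes. Set against all macrophage and monocyte cells of the same library, the chains and Cd74 reached 1.39% and 1.06% and the BAM genes 1.67% and 0.829%. The B cell genes Cd79a, Cd79b and Igkc summed to 19.7 CPM in homozygous-labelled and 4.09 CPM in heterozygous-labelled endothelial-like cells, with 1 cell holding 59.8% of the homozygous-labelled UMIs, and to 7.94 and 4.09 CPM in the class II-low ones. A single endothelial-like cell held 12.5% and 2.33% of the UMIs of the 7 genes. Mural-like cells held 114 and 79.0 CPM of the chains and Cd74 beside 115 and 98.7 CPM of the BAM genes. The part of free macrophage or B cell RNA in these values was not tested.

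**Figure D4:**
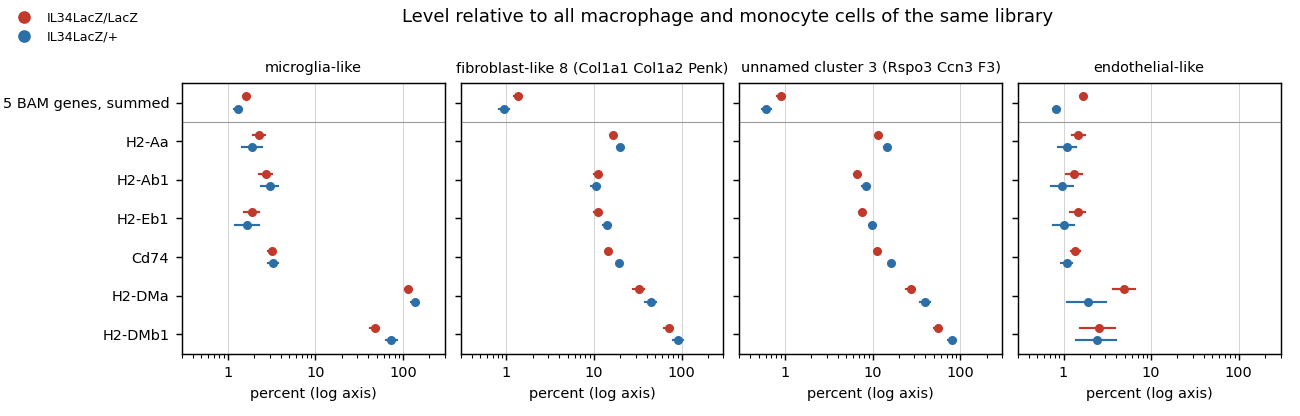
Level of each class II gene except Ciita in microglia-like cells, fibroblast-like cluster 8, unnamed cluster 3 and endothelial-like cells, as percent of its level in all macrophage and monocyte cells of the same library (log axis), with the 5 BAM genes summed in the top row. H2-DMa stands at 113% and 136% in microglia-like cells, and the class II genes stand above the BAM genes in the fibroblast-like cells.

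Part of the fibroblasts carried class II transcripts beyond the level of the BAM genes. Fibroblast-like cells as a whole held 1300.4 CPM in the homozygous-labelled and 1114 CPM in the heterozygous-labelled library (ratio 1.17), H2-Aa standing at 276 and 222 CPM and Cd74 at 592 and 509.9 CPM. The chains and Cd74 were at 11.9% and 13.9% of the macrophage level, against 1.17% and 0.911% for the 5 BAM genes, or 11.4 and 10.7 UMIs for each UMI of the BAM genes. H2-DMa was at 26.6% and 38.2% and H2-DMb1 at 51.7% and 72.1% of the macrophage level. Cluster 3, led by Rspo3, Ccn3 and F3 and left unnamed, was alike with 1137 and 1115 CPM, against 77.3 and 59.7 CPM of the BAM genes.

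These transcripts were unevenly spread among the fibroblast clusters. Cluster 8, led by Col1a1, Col1a2 and Penk, held 1534 and 1371 CPM, and cluster 13, led by Myoc, Krtdap and Igfbp6, held 1427 and 938 CPM. Cluster 10, led by Slc7a11, Apod and Dcn, held 175 and 233 CPM beside 99.5 and 122 CPM of the BAM genes. Of fibroblast-like cells, 4.67% were class II-high in the homozygous-labelled (46 of 986) and 4.34% in the heterozygous-labelled library (30 of 692), with a median of 7.5 and 7 thinned UMIs of the 4 genes. They held 47.1% and 38.0% of these UMIs, a smaller part than class II-high BAM-like cells held of theirs. Both groups were cut at 5, which lies near these fibroblast medians, so the parts do not measure how concentrated class II was. Of the 6 genes measured, H2-Ab1 was at least 1.5-fold higher in homozygous-labelled fibroblast-like cells, at 135 and 89.1 CPM, where 1.81% of all genes were.

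Class II-high fibroblast-like cells kept the fibroblast markers at 8160.1 CPM in the homozygous-labelled and 5774 CPM in the heterozygous-labelled library, beside 8405 and 6983 CPM in class II-low ones. Their BAM markers summed to 69.7 and 200.04 CPM, beside 154 and 130 CPM in class II-low cells, and their monocyte markers to 519 and 560 CPM, beside 561 and 533 CPM. The monocyte list includes Fn1 and Vcan, and whether its UMIs in fibroblast-like cells came from monocytes was not tested. Cd79a, Cd79b and Igkc summed to 89.0 and 75.6 CPM in class II-high against 3.05 and 3.69 CPM in class II-low fibroblast-like cells, with 1 class II-high cell holding 97.3% and 100% of these UMIs. H2-DMa stood at 284 and 258 CPM in class II-high against 44.7 and 59.1 CPM in class II-low fibroblast-like cells, and Ciita had 3 and 1 UMIs. The class II-high cells were deeper, with medians of 8659 and 6787.5 UMIs against 5270 and 5441 UMIs, and had a median doublet score of 0.0697 and 0.0755 against 0.0451 and 0.0547. The part of depth and of doublets in their number was not tested.

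B cell-like cells, 91 and 41 in number, held 9992 and 13254 CPM of the 7 genes. Cd74 made up 64.8% and 66.6% of their UMIs of the 4 genes, against 49.2% and 49.8% in BAM-like and 51.4% and 54.0% in fibroblast-like cells. They also carried H2-Ob at 309 and 246 CPM. Neutrophil-like cells held 7634 and 3947 CPM, but also 2807 and 4215 CPM of the 5 BAM genes. In T or NK-like cells, 1 cell held 95.9% and 96.996% of the UMIs of the 7 genes.

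Class II-high BAM-like cells carried fewer transcripts of the BAM markers and more of the microglia and B cell markers than class II-low ones. They also carried more of the summed monocyte markers, most of which was Ccr2. The cut used the chains and Cd74, which are therefore no result, while H2-DMa, H2-DMb1 and Ciita took no part in it. H2-DMa stood at 517 CPM in class II-high and 45.9 CPM in class II-low cells of the homozygous-labelled library, and at 535 and 44.8 CPM in those of the heterozygous-labelled library, 11.3-fold and 11.9-fold apart. H2-DMb1 stood at 392.3 and 51.1 CPM in the homozygous-labelled library and at 396 and 45.7 CPM in the heterozygous-labelled one. Ciita had 91 UMIs in class II-high and 20 in class II-low cells of the homozygous-labelled library, and 72 and 8 in those of the heterozygous-labelled one, a CPM ratio of 22.6 and 47.6.

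Of 6798 other genes with at least 100 UMIs, 139 (2.04%) were at least 1.5-fold higher and 279 (4.1%) at least 1.5-fold lower in class II-high cells in both libraries. Ccr2, the receptor that draws monocytes into tissue, stood at 166 CPM in class II-high and 1.001 CPM in class II-low cells of the homozygous-labelled library, and at 168 and 2.69 CPM in those of the heterozygous-labelled one. Cd72 stood at 138 and 13.8 CPM in the homozygous-labelled and at 141 and 10.1 CPM in the heterozygous-labelled library. Cd52, a small surface glycoprotein of leukocytes, stood at 1135 and 224 CPM in the homozygous-labelled and at 1122 and 197 CPM in the heterozygous-labelled library. Plbd1, Clec4b1, Lat2, Lgals3, Slamf9, Scimp, Gngt2 and Fcgr4, also among the 12 genes highest by their smaller ratio, were 4.71-fold (Fcgr4, heterozygous-labelled) to 23.6-fold (Plbd1, heterozygous-labelled) higher.

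On the low side, Lyve1, the hyaluronan receptor of perivascular macrophages, stood at 228 CPM in class II-high and 853 CPM in class II-low cells of the homozygous-labelled library, and at 298 and 972 CPM in those of the heterozygous-labelled one. Cd209b had ratios of 0.262 and 0.243, Ednrb 0.271 and 0.223, and Egfr 0.276 and 0.200. The 8 BAM markers summed to 8523 and 9328 CPM in class II-high cells, against 15638 and 15418 CPM in class II-low cells, with medians over cells of 7542 and 7998 against 15454 and 15484 CPM. Monocyte markers summed to 201 and 181 CPM against 23.9 and 21.3 CPM, with a median of 0 per cell in each group. Ccr2 alone made up 166 and 168 CPM of the class II-high sums, and 1.001 and 2.69 CPM of the class II-low sums. Ly6c2 and Vcan had 0 UMIs in the heterozygous-labelled class II-high cells. Microglia markers summed to 1720 and 1528 CPM against 993 and 1003 CPM. B cell markers summed to 246 and 280 CPM in class II-high cells, against 167 and 157 CPM in class II-low cells, with Vpreb3 at 0 UMIs in the class II-high cells of both libraries. The median doublet score was 0.0526 and 0.0713 in class II-high against 0.0284 and 0.0364 in class II-low cells, and the part of doublets or of other cells' RNA in these differences was not tested.

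**Figure D5:**
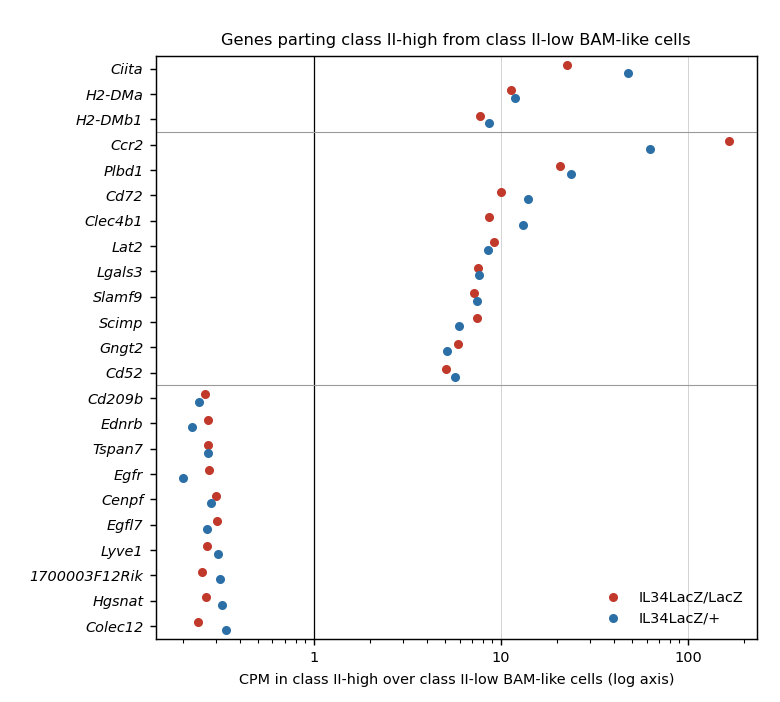
Ratio of CPM in class II-high over class II-low BAM-like cells (log axis) for Ciita, H2-DMa and H2-DMb1, the 10 genes with the highest and the 10 with the lowest ratios, in both libraries. Ccr2 stands highest at 166 and 62.4, and Lyve1 is among the genes below 1 at 0.268 and 0.307.

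Other genes of the pathway, in lists chosen with earlier results of these data known, hardly differed between the genotypes in BAM-like cells. None of the 7 processing and chaperone partners, 7 promoter factors, 9 genes of Ciita induction and interferon gamma signalling and 8 costimulation and turnover genes (of 9 listed) was 1.5-fold apart, with median ratios of 1.10, 0.984, 1.04 and 0.978. Of 8 dendritic cell genes, 3 had at least 100 UMIs and none was 1.5-fold apart, with a median ratio of 1.17. Itgax, below that minimum, had 65 and 15 UMIs, or 9.03 and 2.12 CPM. Of 6 other class II genes, 5 were in the files and none had 100 UMIs in BAM-like cells.

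Between class II-high and class II-low BAM-like cells, up to 2 tested members of a list were past 1.5-fold in both libraries, beside 2.04% of all genes higher and 4.1% lower. Of the 7 processing partners, Ctss, the cathepsin S protease that trims the invariant chain, was higher (1.84-fold and 1.56-fold). Ctsl, cathepsin L, was lower (ratios of 0.660 and 0.580), and the list's medians were 0.795 and 0.827, beside 0.909 and 0.919 over all genes tested. None of the 5 promoter factors tested and none of the 9 genes of Ciita induction passed, Irf1 standing at 1.56 and 1.29. Of 6 costimulation and turnover genes tested, Icosl, the ligand of the costimulatory receptor ICOS, was higher (1.74 and 1.71) and the lipopolysaccharide receptor gene Tlr4 lower (0.495 and 0.653). Of 2 dendritic cell genes tested, Cd209a was lower (0.265 and 0.431).

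By their profile over 29 groups of cells in both libraries (58 points of log2(CPM + 10)), the genes outside class II most like the summed members were Cd52 (Pearson r of 0.850), Ifi27l2a (0.846), Ifi30 (0.836), Phf11b (0.821) and Sp110 (0.819). The points share libraries, and some groups hold others. Over 3357 single BAM-like cells, Cd52 was again first (0.513), followed by Mpeg1 (0.399), Plbd1 (0.392), Slamf9 (0.390) and Cd72 (0.372). Among the members in these cells, H2-DMa (0.700) and H2-DMb1 (0.602) stood nearer to the sum than Ciita (0.369), which is counted at far lower depth.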

How the data were processed

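The matrices deposited by the authors contain raw UMI counts of each gene in each barcode. Per the file headers, Cell Ranger 5.0.0 made them, on GRCm38.p6 (mm10) per the submitters' processing notes. Everything else was computed here from these counts with Python 3.11.15, scanpy 1.11.5, leidenalg 0.10.2 and scipy 1.17.1. Doublets were called with Scrublet in scanpy at an assumed rate of 10% (6.46% of homozygous-labelled and 6.44% of heterozygous-labelled barcodes) and removed. Clustering used 2000 variable genes without class II genes, 30 components, 20 neighbours and resolution 1 (seed 1). Macrophages and monocytes were clustered again by themselves. Names needed 3 enriched markers of a list, and the naming thresholds were set after the data had been seen. Cd209a, in the dendritic list, was not held against the BAM name. Ratios between libraries used an exact conditional binomial interval, shares a Clopper-Pearson interval and levels a Poisson interval. Intervals of differences of shares combined the Wilson limits of both shares. The named genes were the 7 members, the pathway lists, the 12 genes with the highest and the 12 with the lowest ratio of class II-high over class II-low cells, and the 10 most alike genes by each measure. Some genes named by this rule are not reported here. The code was tested on simulated data. Members and lists were chosen with earlier results of these data known.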

Additional observations from a re-analysis of the deposited data

Results flagged for a closer look

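Against the ratio of 1.13 in BAM-like cells as a whole, the summed class II level was lower in the homozygous-labelled than in the heterozygous-labelled library in 5 of the macrophage subsets with at least 100 UMIs of the 7 genes in each library. The ratio was 0.830 in subset 2 (interval 0.767 to 0.899), which is led by Cd28, Cd300ld and Wfdc17. It was 0.958 in subset 5 (0.941 to 0.976), 0.758 in subset 6 (0.710 to 0.809), 0.885 in subset 9 (0.848 to 0.923) and 0.864 in the monocyte-like subset 10 (0.825 to 0.904). Subset 14, with 13 and 7 cells and 93 UMIs of these genes in its homozygous-labelled cells, fell under that minimum and had a ratio of 0.181, with 1 cell holding 82.8% of the heterozygous-labelled UMIs. The difference between these ratios was not tested, since each genotype has 1 library, and their intervals leave out the spread between cells.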

How the results depend on the processing

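No paired analysis was possible because each genotype has 1 library, and none could be left out. With called doublets kept, the BAM-like ratio reversed to 0.883, with H2-Aa at 0.887, H2-Ab1 at 0.815, H2-Eb1 at 0.888 and Cd74 at 0.889, and the difference in the class II-high share was -0.660 points against 3.503. Cells were clustered and named anew there, and no class II-rich subset was BAM-like, so that the set of BAM-like cells changed too. Weighting by heterozygous-labelled subset shares also turned the BAM-like ratio, to 0.954. Under the other settings the BAM-like ratio kept its direction: 1.23 with class II genes kept in clustering, 1.11 and 1.19 at mitochondrial limits of 5% and 20%, 1.05 from 2000 UMIs, 1.28 and 1.17 at resolutions 0.5 and 2, 1.28 with cells weighted equally, 1.10 after median scaling, 1.47 with subset 7 and 1.42 over all macrophages. The share difference was 0.759 points thinned to 2000 UMIs, with the cut raised in proportion and cells under 2000 UMIs left out.

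In the same order of settings, the class II-high ratio (1.08) was 1.15, 1.12, 1.18, 1.10 from 2000 UMIs, 1.14, 1.12 and 1.03, and 1.10 with doublets, 1.11 and 1.06 at a cut of 3 and 10, 1.14 thinned to 2000 and 1.06 with 3 genes. The class II-low ratio (0.970) lay above 1 at 20% mitochondrial UMIs (1.204), with doublets (1.10), from 2000 UMIs (1.07), weighted equally (1.15), at a cut of 3 (1.14) and thinned to 2000 (1.16). Microglia-like cells (1.12) gave 1.53 and 1.54 at the mitochondrial limits, 1.35 with doublets and 1.03 from 2000 UMIs. Endothelial-like cells (1.91) gave 2.74 at 5%, 1.54 with doublets, 4.52 from 2000 UMIs and 1.62 weighted equally. All macrophages (1.42) gave 1.29 and 1.45 at the mitochondrial limits, 1.38 with doublets, 1.39 from 2000 UMIs and 1.39 after median scaling. Genes 1.5-fold apart in BAM-like cells numbered 176 (105 higher, 71 lower), and 306 weighted equally, 3110 without a minimum and 1131 at a lower fold. After median scaling, 76 were higher and 86 lower. Genes parting class II-high from class II-low cells numbered 418, and 222 with doublets. Ciita stayed above 1 in 12 of 12 alternatives (1.09 to 1.80). The cause of these moves was not tested. Ciita, at 111 and 80 UMIs in BAM-like cells, is limited by depth.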
